A study of Mus musculus with 7 samples.

Results

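The let-7 family on a mouse miRNA array comprised 8 members, mmu-let-7a, mmu-let-7b, mmu-let-7c, mmu-let-7d, mmu-let-7e, mmu-let-7f, mmu-let-7g and mmu-let-7i, taken by their names in the scanner output (control spots left out) from 696 mouse miRNAs on the array and written below without the species prefix. All 8 were detected on every array and passed the filter on low signals, which left 236 miRNAs for testing. Total RNA came from whole kidneys of male C57BL/6 mice aged 9 to 12 weeks, collected at day 28 after unilateral ureteral obstruction (UUO), a model of kidney fibrosis in which the left ureter is tied, or after a sham operation in which it is exposed but not tied. 7 one-colour arrays were used here, 3 labelled treated (replicates 1, 3 and 4) and 4 labelled non-treated (replicates 1 to 4). The record lists each array as a separate sample, and p-values measure the spread between these samples only. The record does not say which label stands for UUO. The S numbers of the treated arrays could mean sham, a word that is also in the title of the record. The C numbers of the non-treated arrays could mean control, so the letters do not settle which label is UUO. Every direction is therefore given as labelled treated relative to labelled non-treated. With treated read as obstructed and non-treated as sham, let-7g in the main scaling given below runs opposite to the study. In that scaling so does every other miRNA in the study's list of differences, such as miR-192 (log2 change 3.24 here) and miR-199a-3p (-2.55). For let-7g this depends on the scaling, since it was at -0.30 with spike-in controls and -0.50 without scaling. Others in the list turned as well, such as miR-200a (-0.13 and -0.33) and miR-200b (-0.057 and -0.25). miR-192 and miR-199a-3p kept their direction under both.

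let-7 miRNAs pair with target mRNAs mainly through a short seed near their 5′ end and lower the output of those mRNAs. They are known for repressing RAS genes, HMGA2 and LIN28, and for rising as cells differentiate, while the RNA-binding protein LIN28 blocks the processing of their precursors. Several genes encode the family, some in clusters with each other or with miRNAs of the miR-99/100 and miR-125 families, and in kidney the family is widely expressed.

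The mature sequences, from RefSeq on build GRCm38.p6, are shown to let the members be told apart, with bases 2 to 8 (the seed) in capitals. A sequence was matched for all 8 members.
let-7a: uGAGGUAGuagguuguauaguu
let-7b: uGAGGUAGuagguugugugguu
let-7c: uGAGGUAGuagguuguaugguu
let-7d: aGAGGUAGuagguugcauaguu
let-7e: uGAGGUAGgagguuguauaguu
let-7f: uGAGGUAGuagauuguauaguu
let-7g: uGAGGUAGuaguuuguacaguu
let-7i: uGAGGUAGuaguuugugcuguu
All 8 are 22 bases long and carry the same seed, and they differ from each other at 7 positions only. Counted from 1 at the 5′ end and with let-7a as the reference, let-7c differs by A19G, let-7e by U9G and let-7f by G12A. Members that differ from let-7a at 2 positions are let-7b (A17G A19G), let-7d (U1A U16C) and let-7g (G12U U18C), and let-7i differs at 4 (G12U A17G U18C A19U). let-7g and let-7i share G12U and U18C, which no other member carries. They differ from each other at 2 positions, A17G and A19U with let-7g as the reference, shown here in capitals because this pair moved farthest apart.
let-7g: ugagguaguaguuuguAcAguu
let-7i: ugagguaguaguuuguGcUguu

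The precursors lie at separate places in GRCm38.p6. The hairpin of let-7g is at chr9:106178840-106178927 on the plus strand, within the gene model of Wdr82, and that of let-7i is at chr10:122985640-122985724 on the minus strand, outside any other gene model of the annotation. let-7e is encoded at chr17:17830352-17830444 within Spaca6, where the mature miR-99b, let-7e and miR-125a lie within 647 bases. Hairpins of let-7d, let-7f and let-7a form a cluster on chromosome 13 (2183 bases between the outer mature ends), and let-7c and let-7b lie together on chromosome 15 (731 bases). Further copies of let-7a, let-7c and let-7f lie on chromosomes 9, 16 and X. An array that reads the mature miRNA cannot tell the copies of one member apart.

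In the main scaling, members of the family were called in both directions. let-7i was 2.34-fold lower, let-7e 1.45-fold lower and let-7c 1.19-fold lower on arrays labelled treated, let-7g was 1.58-fold higher, and the other 4 members did not pass the test (limma, Benjamini-Hochberg adjusted p below 0.01 over all 236 miRNAs). For these values signals were scaled so that the 186 miRNAs detected on all arrays had the same mean log2 signal on each. The rise of let-7g depends on that scaling, at 0.15 (log2, not called) when arrays were set to the mean of all miRNAs, -0.30 with spike-in controls as the reference and -0.50 without scaling, whereas let-7i, let-7e and let-7c were below 0 under each of the 7 scalings tried (let-7c by as little as -0.0071). Of all miRNAs tested, 23.7% were called higher and 30.9% lower (54.7% in either direction), against 1 and 3 of the 8 members. The median log2 change was -0.017 over the 8 members and -0.061 over all 236. In bulk tissue, fewer cells of a type and less RNA per cell cannot be told apart.

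let-7i, the member with the largest change, had scaled log2 signals of 10.94, 10.75, 10.83 and 10.85 on the non-treated arrays and of 9.54, 9.73 and 9.58 on the treated arrays. Every treated array was more than 1 log2 unit below every non-treated array. The means were 10.84 ± 0.079 (SD, n = 4) and 9.62 ± 0.098 (SD, n = 3), a log2 fold change of -1.23 with SE 0.065 (limma adjusted p = 9.24e-06). The exact permutation test over the arrays gave p = 0.0571 (2-sided), the smallest that 35 splits allow, so that no single value can pass 0.05 by that test. let-7i was called lower under all 31 alternatives of scaling, signal, filter, test and array left out.

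let-7g, its closest relative in sequence, lay the other way. Its scaled log2 signals were 10.17, 10.31, 10.28 and 10.43 on the non-treated arrays, and 10.86, 11.02 and 10.99 on the treated arrays. These did not overlap, with 10.30 ± 0.11 (SD, n = 4) against 10.96 ± 0.080 (SD, n = 3). The log2 fold change was 0.66 with SE 0.072 (limma adjusted p = 2.54e-04), a call lost under 9 of 31 alternatives. Before any scaling the order was less clear, since summed signals of let-7g were 1805, 2160, 1167 and 2177 on the non-treated arrays and 1146, 1656 and 1044 on the treated arrays, which overlap. Unscaled let-7i was 3087, 2940, 1701 and 2906 against 457, 677 and 395, with no overlap.

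let-7e, encoded beside miR-99b and miR-125a, had log2 signals of 9.62, 9.51, 9.77 and 9.53 against 9.08, 9.11 and 9.01, the labelled treated arrays all lower. Its log2 fold change was -0.54 with SE 0.072 (limma adjusted p = 6.17e-04). The call was lost under 4 of 31 alternatives. These were the 75th percentile of all miRNAs (-0.29), Bonferroni adjustment, and the deposited table with or without its column for treated replicate 4. That column holds error estimates in place of signals. let-7c, encoded by 2 genes, had log2 signals of 11.97, 11.90, 11.87 and 11.88 against 11.59, 11.75 and 11.61. Here too the groups did not overlap, but the log2 fold change of -0.25 with SE 0.052 (limma adjusted p = 0.00507) was small. That call was lost under 20 of 31 alternatives, among them leaving out non-treated replicate 1, 2 or 4 or treated replicate 1 or 4, with log2 fold changes from -0.30 to -0.21 over the arrays left out.

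The 4 members not called had smaller differences, whose sign changed with the scaling in all 4. let-7d, which shares the chromosome 13 cluster with let-7f and let-7a, had log2 signals of 10.34, 10.26, 10.32 and 10.30 against 10.41, 10.43 and 10.49. let-7f had 11.51, 11.57, 11.67 and 11.66 against 11.68, 11.76 and 11.74. In both the groups did not overlap by a narrow margin, with log2 differences of 0.14 (SE 0.036, limma adjusted p = 0.0143) and 0.13 (SE 0.052, limma adjusted p = 0.0732). let-7a, the reference of the family, differed by 0.013 (SE 0.046, limma adjusted p = 0.838), from 11.73 to 11.85 on the arrays of either label. let-7b differed by -0.046 (SE 0.042, limma adjusted p = 0.371), with 11.66 to 11.79 against 11.65 to 11.67. Groups overlapped for let-7a and let-7b alone, and 6 of 8 members did not overlap, beside 66.1% of all miRNAs tested.

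**Figure D1:**
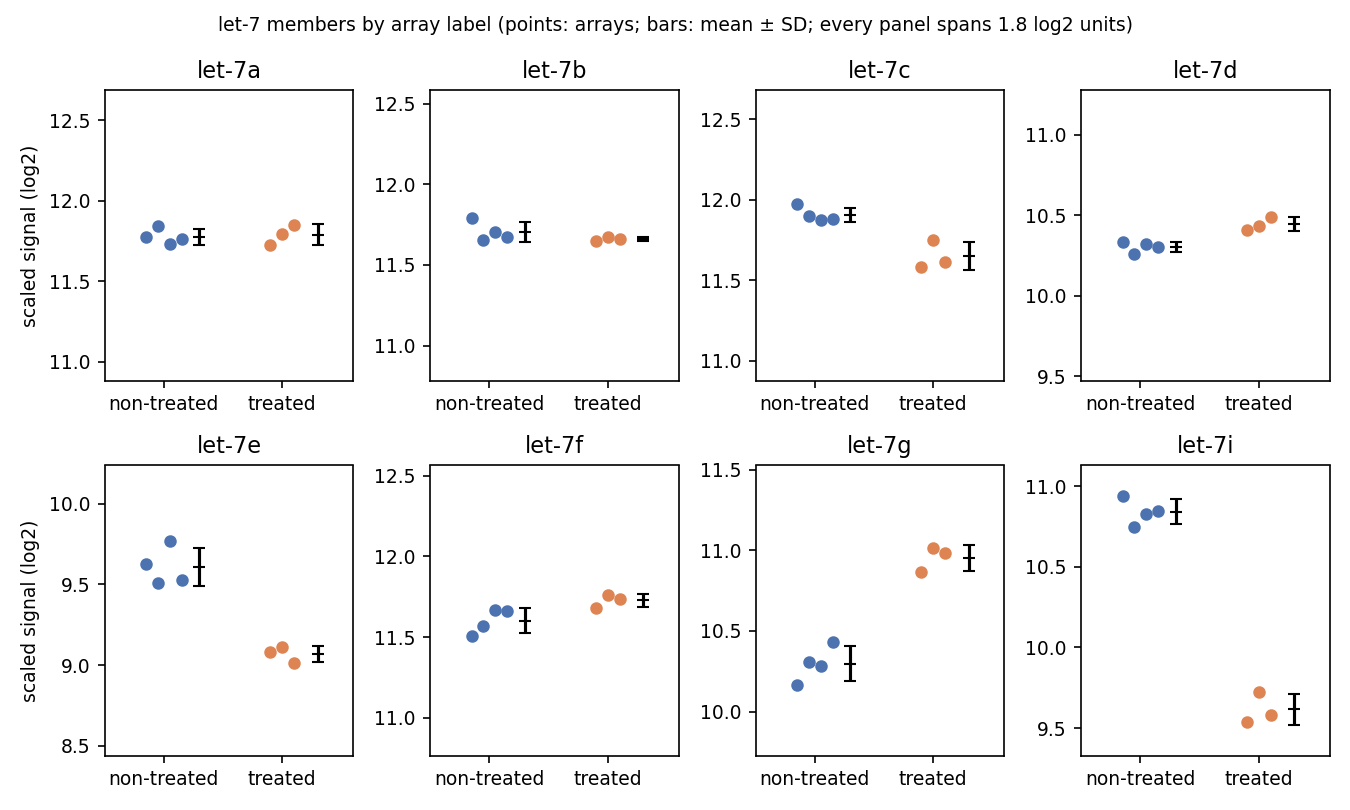
Scaled log2 signal of each let-7 member on each array, by label, with points for the arrays in order of replicate and bars for mean ± SD (n = 4 and n = 3); every panel spans the same number of log2 units, and levels are not comparable between panels. let-7g is higher on the arrays labelled treated (log2 difference 0.66, but -0.30 with spike-in scaling and -0.50 without scaling), let-7i is lower (-1.23), and let-7a and let-7b overlap.

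The choice of scaling moved the members together, apart from quantile normalization, which moved let-7a and let-7d up (to 0.024 and 0.18) and let-7b, let-7c and let-7i down (to -0.34, -0.58 and -1.52). Arrays labelled treated were dimmer before scaling, with a mean log2 signal over the 186 miRNAs of 6.09 ± 0.32 (SD, n = 3) against 7.24 ± 0.40 (SD, n = 4), while the mean log2 signal of 4 spike-in controls was 10.49 ± 0.27 against 10.68 ± 0.21 (exact permutation p = 0.343, 2-sided). Between 193 and 214 miRNAs were detected on arrays labelled treated and between 232 and 282 on the others. Over the 236 miRNAs the median change came to -0.061 in the main scaling, -0.30 when arrays were set to the 75th percentile of detected miRNAs, -0.56 when set to the mean of the whole array, 0.092 when set to its 75th percentile, 0 after quantile normalization, -1.01 with spike-in controls and -1.20 without scaling. Calls over all miRNAs split 56 higher to 73 lower in the main scaling, 50 to 95, 36 to 121, 73 to 46 and 61 to 57 in the next 4, then 18 to 166 and 7 to 162. The median of the 8 members followed, from 0.23 at the array's 75th percentile to -1.17 without scaling. Set against the median of all miRNAs, the members' median was within 0.16 of it in each of the 7 scalings. The family's share of the summed miRNA signal was 17.1% ± 0.49 (SD, n = 4) on the non-treated arrays and 16.7% ± 0.67 (SD, n = 3) on the treated arrays (exact permutation p = 0.4, 2-sided).

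**Figure D2:**
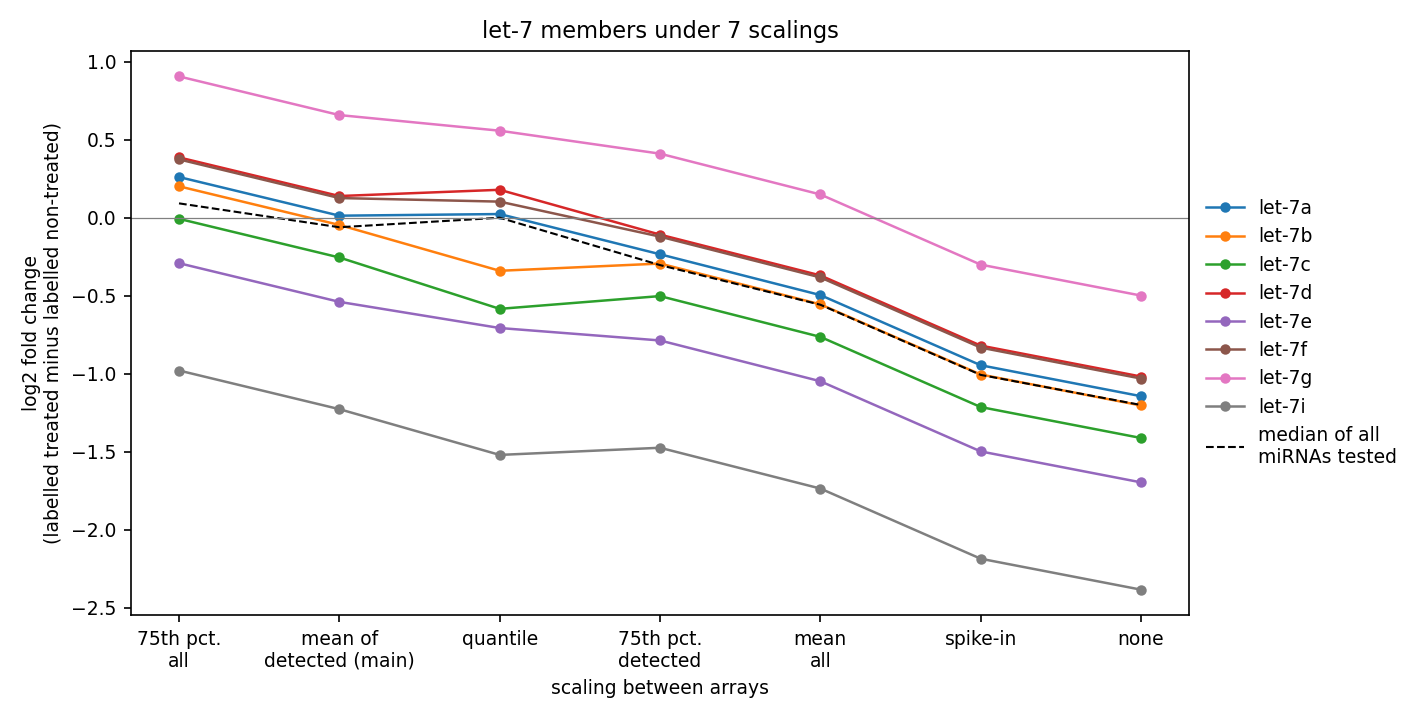
Log2 fold change (labelled treated minus labelled non-treated) of each member under 7 scalings between arrays, with the median of all 236 miRNAs tested as a dashed line; lines join one member's values and do not imply an order of the scalings. let-7i stays lowest (-2.38 to -0.98) and let-7g highest (-0.50 to 0.91) under every scaling, and let-7g falls below 0 with spike-in scaling and without scaling.

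The divergence itself was measured without any scaling, as the log2 ratio of 2 members on the same array. Such a ratio shows unequal change and not that either member stayed level, and its own size carries the brightness of different probes. For let-7g over let-7i the log2 ratio was -0.77, -0.44, -0.54 and -0.42 on the non-treated arrays and 1.33, 1.29 and 1.40 on the treated arrays. The sign of the ratio thus differed between every array of one label and every array of the other. Its mean moved from -0.54 ± 0.16 (SD, n = 4) to 1.34 ± 0.058 (SD, n = 3), a change of 1.88 with SE 0.11, or 3.69-fold (limma adjusted p = 6.58e-08, the larger of the values with either member as the denominator). Within the first row of the slide, which held arrays of both labels, the change was 1.93, and within the second it was 1.83. Over 26 alternatives it ran from 1.67 to 2.08 and was called in each. Alternatives that shift whole arrays by a constant, or change only the floor, filter or threshold, left it at 1.88. They could not move it and are not separate checks of its size.

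Of the 28 pairs of members, 19 changed their ratio and 9 did not pass the test, beside 65.6% of all pairs of miRNAs called. The groups did not overlap in 25 of 28 pairs, against 75% of all pairs. Members were called in opposite directions in 3 pairs (let-7g with let-7c, let-7e and let-7i), beside 14.7% of all pairs, in the main scaling. Ordered from the largest rise to the largest fall relative to the others, the members stood as let-7g, let-7d, let-7f, let-7a, let-7b, let-7c, let-7e and let-7i. Of the 7 neighbouring pairs in that order, let-7g and let-7d differed (change of log2 ratio 0.52, SE 0.088, limma adjusted p = 9.69e-04), as did let-7e and let-7i (0.69, SE 0.10, limma adjusted p = 1.60e-04). The 5 steps between them, from let-7d to let-7e, did not pass, with changes of 0.013 to 0.28. let-7g differed from each of the other 7 members (0.52 to 1.88), and so did let-7i (0.69 to 1.88).

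**Figure D3:**
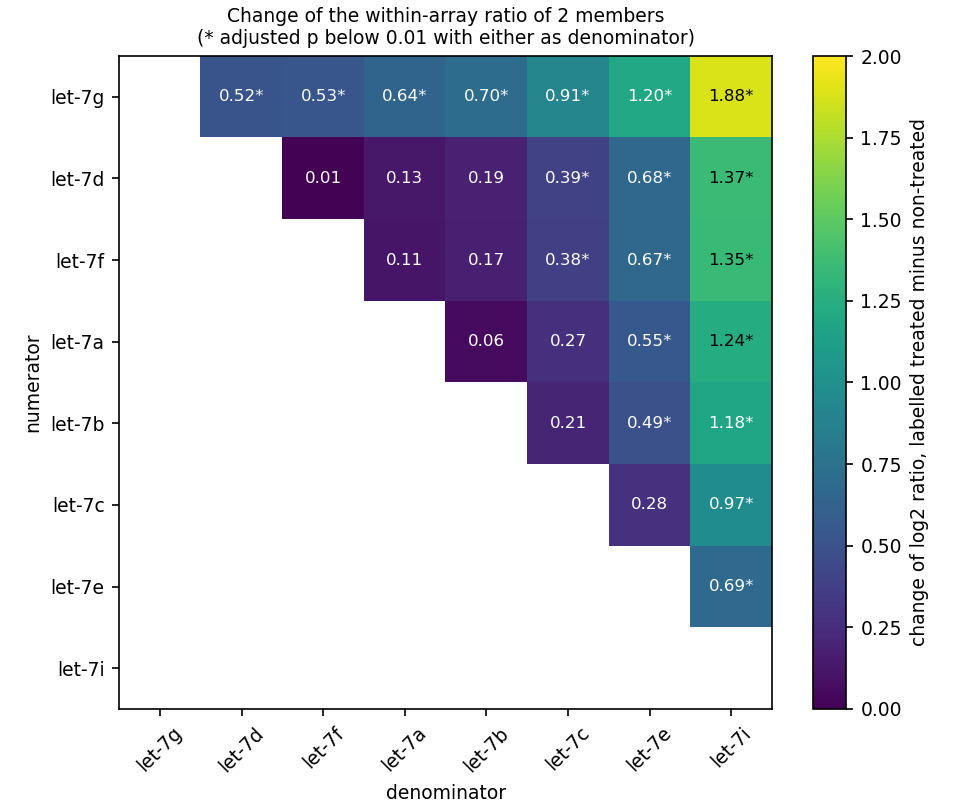
Change of the within-array log2 ratio of each pair of members (row over column), labelled treated minus labelled non-treated, members ordered by their change; colour and number give the change and an asterisk marks pairs called with either member as the denominator. The top row (let-7g) and the last column (let-7i) are called throughout, meeting at 1.88, and the block of let-7d, let-7f, let-7a and let-7b holds 0.01 to 0.19 with no call.

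Members made from one cluster could be compared in the same way. let-7d over let-7f changed by 0.013 (SE 0.080, limma adjusted p = 0.892), let-7f over let-7a by 0.11 (SE 0.087, limma adjusted p = 0.288) and let-7d over let-7a by 0.13 (SE 0.078, limma adjusted p = 0.183), so none of the 3 pairs of the chromosome 13 cluster passed. let-7b over let-7c, the pair on chromosome 15, changed by 0.21 (SE 0.080, limma adjusted p = 0.0414) and did not pass either, although its groups did not overlap. let-7a and let-7f have copies elsewhere, as has let-7c, and the share of each copy was not measured.

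Each member was read by 2 probes with 10 spots each, and the changes of the 2 probes lay close together. Both probes of let-7g were called higher in the main scaling (log2 fold changes 0.68, SE 0.084, and 0.58, SE 0.065), although neither was called higher with the mean of all miRNAs, with spike-in controls or without scaling. Both probes of let-7i (-1.27, SE 0.092, and -1.13, SE 0.058) and both of let-7e (-0.55, SE 0.089, and -0.49, SE 0.062) were called lower. Of let-7c the dimmer probe was called (-0.28, SE 0.037) and the brighter was not (-0.25, SE 0.060, limma adjusted p = 0.0133). That made 2 probes higher and 5 lower of 16, beside 21.2% and 27.5% (48.7% in either direction) of the 528 probes tested. The 2 probes of a member differed in their change by 0.0053 to 0.13 (median 0.066), against a median of 0.071 in the 97 miRNAs read by 2 probes above the floor on every array. The ratio of the 2 probes overlapped between the labels for all 8 members, where 13.4% of those 97 miRNAs did not overlap. In let-7a and let-7b the probes had differences of opposite sign, from -0.063 to 0.10 and not called.

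Taking either probe of let-7g over either probe of let-7i, the log2 ratio changed by 1.72, 1.81, 1.85 and 1.94, and the groups did not overlap in any of the 4 ratios (exact permutation p = 0.0571 in each, the smallest possible). All 1120 spots of the 16 probes were well above background, the lowest at 2.91 times its background, and no spot was saturated. The median coefficient of variation among the spots of a probe was between 12.9% and 19.0%.

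**Figure D4:**
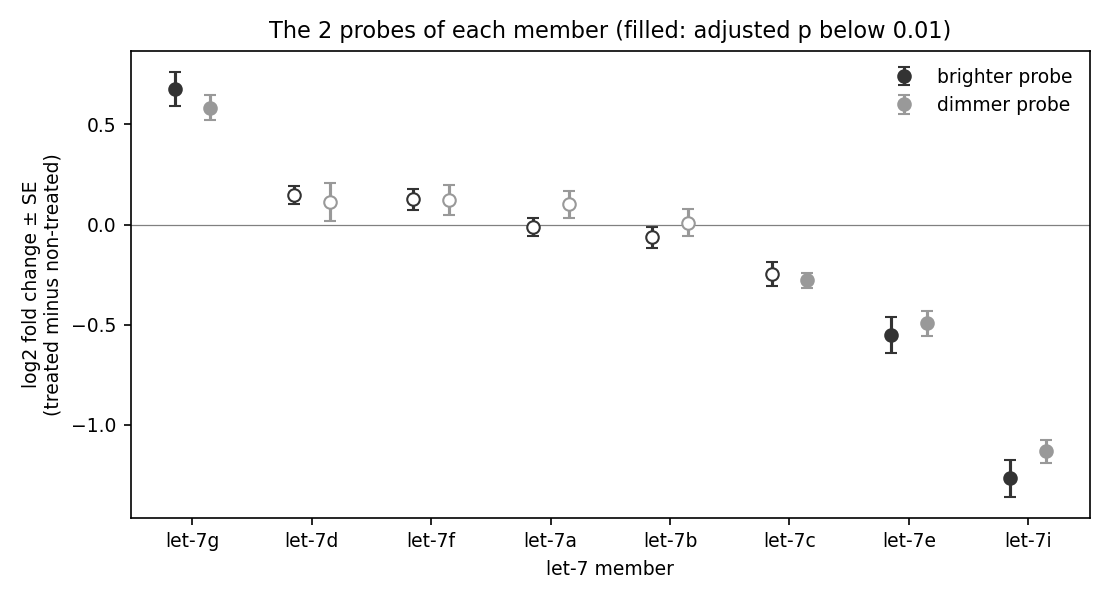
Log2 fold change ± SE of the brighter and the dimmer probe of each member in the main scaling, n = 4 arrays labelled non-treated and n = 3 labelled treated, filled where the limma adjusted p was below 0.01. The 2 probes of each member lie within 0.13 of each other; those of let-7g are above 0 here but not with spike-in scaling or without scaling, and those of let-7e and let-7i are below 0.

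Near-identical sequence did not go with a like change in every pair. The 4 pairs that differ at 1 base had changes of ratio from 0.11 to 0.55 (median 0.24), and 1 of them was called, let-7a over let-7e at 0.55 (SE 0.11, limma adjusted p = 0.00135), a pair parted by U9G alone. At 2 differing bases the median over 8 pairs was 0.46 and 5 were called, and this group holds both let-7a over let-7b at 0.059 and let-7g over let-7i at 1.88. At 3 bases the median was 0.59 (8 pairs, 6 called) and at 4 bases 0.84 (6 pairs, 5 called). The single pairs at 5 bases, let-7e and let-7i, and at 6 bases, let-7d and let-7i, changed by 0.69 and 1.37, and pairs that share a member are not independent. Binding of one member to the probe of another was not tested, and probe sequences were not used here. Where it occurs, a probe reads a mixture, so the values of let-7a, let-7b, let-7c, let-7e and let-7f, each 1 base from another member, are uncertain in that respect. The same uncertainty was not excluded for let-7d, let-7g and let-7i, which are 2 or more bases from every other member.

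**Figure D5:**
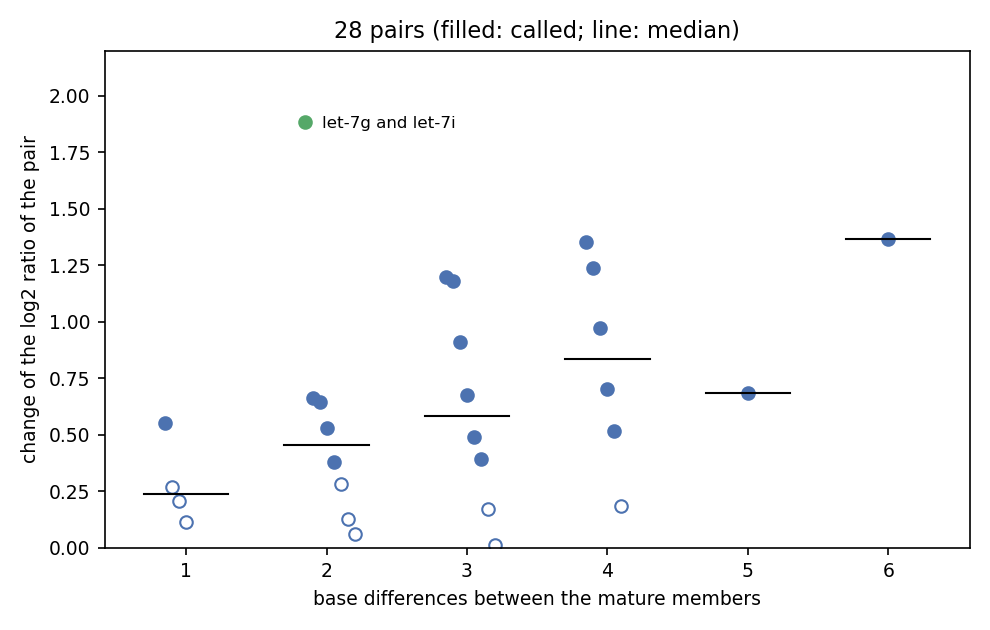
Change of the within-array log2 ratio (larger minus smaller change, labelled treated against labelled non-treated) of the 28 pairs by the number of bases at which the mature sequences differ; points are spread sideways for visibility, filled points passed the test and lines are medians. let-7g and let-7i lie at 2 differing bases and 1.88, above all other pairs, which reach 1.37.

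Relatives of the family were measured on the same arrays. miR-98, which has the same seed and differs from let-7a at 2 positions (G11A A19U), gave 6.58 ± 0.045 (SD, n = 4) against 6.61 ± 0.056 (SD, n = 3), a difference of 0.032 (SE 0.043, limma adjusted p = 0.559) whose sign turned with the scaling (-1.12 without any). miR-202-3p, which shares bases 2 to 7 with the family, differs at base 8 and departs from let-7a at 14 positions, was called higher by 1.06 (SE 0.11, limma adjusted p = 1.59e-04), with log2 signals of 4.06, 3.86, 3.88 and 3.75 against 5.11, 4.76 and 4.95 that did not overlap in the main scaling, but with spike-in controls it differed by 0.099 and without scaling by -0.099, neither called. Before scaling its signal was 26.1, 24.8, 13.7 and 21.2 against 21.3, 21.7 and 15.9, which overlap. Mature sequences of both are shown with the seed window in capitals.
miR-98: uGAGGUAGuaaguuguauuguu
miR-202-3p: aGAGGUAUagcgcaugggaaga
Star strands, the less abundant arms of the let-7 hairpins, were near or below detection. Of the 7 on the array, 5 were detected on no array, and let-7a-1* on 2 arrays, both labelled non-treated. let-7d* was detected on 4 arrays labelled non-treated and 1 labelled treated, with unscaled signals of 7.16, 12.9, 4.73 and 8.83 against 1.03, 5.79 and 2.90. After scaling it sat at the floor on 5 of 7 arrays, so that no comparison of its scaled values is given.

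miRNAs of other families encoded next to let-7 genes were lower more often than not. Of these 5 cluster partners 4 were called lower, with a median log2 change of -0.70 beside -0.061 over all miRNAs tested and 30.9% of them called lower. miR-98, counted above with the same seed, is also such a neighbour, its mature sequence lying within 898 bases of that of a let-7f copy on chromosome X, and was not called. miR-99b and miR-125a-5p, from the let-7e cluster, changed by -0.70 (SE 0.068, limma adjusted p = 1.46e-04) and -0.25 (SE 0.054, limma adjusted p = 0.00668), on either side of let-7e at -0.54, and miR-125a-5p was not called with the 75th percentile of all miRNAs or after quantile normalization. miR-100 and miR-125b-5p, encoded with a copy of let-7a on chromosome 9, changed by -1.72 (SE 0.10) and -1.43 (SE 0.11), where let-7a itself differed by 0.013. let-7a is also made on chromosome 13, and miR-125b also on chromosome 16 beside let-7c (46629 bases between the outer mature ends). miR-99a, beside a copy of let-7c on chromosome 16, differed by -0.36 (SE 0.19, limma adjusted p = 0.140), with groups that overlapped. All 5 were at or below 0 under each of the 7 scalings, with list medians from -1.85 to -0.45.

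Over the 7 arrays the non-members whose log2 signals were most like let-7g by Pearson's r were miR-378* (0.985), miR-29b (0.985) and miR-200a (0.979). Those most like let-7i were miR-31 (0.998), miR-183 (0.997) and miR-106b (0.996). The points share the 2 labels and the scaling, so these values describe the difference between the labels above all.

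Markers of cell types moved between the labels as well. The summed scaled signal of 6 tubule miRNAs (miR-192, miR-194, miR-200a, miR-200b, miR-204 and miR-30a) was 2692 to 3248 on the non-treated arrays and 7461 to 7723 on the treated arrays, with miR-204 called lower and the other 5 higher, though 2 were higher with spike-in controls or without scaling. 4 miRNAs of white blood cells (miR-142-3p, miR-142-5p, miR-150 and miR-223) were called lower in the main scaling, at 1066 to 1394 against 264 to 287, and so were 5 of mesenchyme (miR-199a-3p, miR-199a-5p, miR-214, miR-143 and miR-145), at 2530 to 2867 against 574 to 589. Both red blood cell miRNAs on the array, miR-144 and miR-451, were called higher, at 1079 to 2329 against 4615 to 5118, but with spike-in controls or without scaling miR-144 alone was called. The liver marker miR-122 and the neuron marker miR-124 were detected on no array. The other neuron marker, miR-9, was detected on some arrays but not on all, and did not pass the filter for testing. Of striated muscle 2 miRNAs were tested and 0 called, though 1 was called lower with the mean of all miRNAs or with spike-in controls and 2 without scaling. The part of these cell types in the let-7 differences was not tested.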

How the data were processed

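Scanner files from Agilent Feature Extraction 10.7.3.1 (version per the submitters' processing notes) were deposited by the authors. Their processed signals are spot intensity values on a linear scale, with background subtracted and no normalization between arrays. A table they also deposited holds, for 6 arrays, the processed intensity of the first spot per probe (within 1e-05) and, for treated replicate 4, the error estimate in its place, with column medians of 0.445, 0.532, 0.470, 0.346, 0.322, 0.276 and 1.00. Spots without outlier flags were averaged per probe and summed per miRNA, set to an equal mean log2 over the 186 miRNAs that all 7 arrays detected, floored at 6.71 and log2-transformed. Testing was by limma 3.58.1 (R 4.3.3) for the 236 miRNAs that every array of at least 1 label detected, with a Benjamini-Hochberg adjusted p below 0.01. Ratios were fitted for all miRNAs with each member as the denominator, and probe signals over the 528 probes of the miRNAs tested, raised to at least 1 before log2. Exact permutation tests are 2-sided (2 times the smaller tail). The methods name a t-test on log2 values normalized to the mean of each array; it was run as an alternative on the main scaling and, added after seeing the data, on signals set to the mean of all miRNAs. Other alternatives were 6 other scalings, signal columns, filters, thresholds, a replicate block and the omission of each array in turn. The slide row as a block and the dimmer probe alone were added after seeing the data. Named are the members, their seed relatives, star strands and cluster partners, and the 3 miRNAs most like let-7g and let-7i. Members and lists were chosen with earlier results of these data known. All arrays came from 1 slide and 1 scan, and their number limits the precision. Array values have no read depth. The scripts were tested on simulated data. Marker miR-486 was not matched. Human samples, PCR and serum measurements were not analysed here.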

Additional observations from a re-analysis of the deposited data

Results flagged for a closer look

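Of 37 sets of 4 values over the arrays labelled non-treated (8 member levels, 28 ratios and 1 summed signal), 5 had a single array far from the other 3, where chance gives about 1 in 20 for a single set. The ratios and the sum are built from the same members on the same arrays, so the sets are not independent and the count cannot show an excess. The log2 ratio of let-7b over let-7e was 1.94 on non-treated replicate 3 and 2.14 to 2.17 on the others. On the same array let-7c over let-7e was 2.10, beside 2.35 to 2.39. let-7c over let-7i was 1.15 on non-treated replicate 2 (1.03 to 1.04 on the others), and let-7f over let-7i was 0.57 on non-treated replicate 1 (0.81 to 0.84). The summed signal of the 8 members before scaling was 17740 on non-treated replicate 3 and 29880 to 31922 on the others.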

How the results depend on the processing

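The change of let-7g over let-7i was called under all 26 alternatives that gave it (1.67 to 2.08, and 1.81 to 1.93 with an array left out). Several of these, such as scalings by a constant per array, could not move a ratio within an array and left it at 1.88. let-7i was called lower under all 31. Against 3 members lower and 1 higher, the counts were 5 lower with the 75th percentile of detected miRNAs, 1 lower and 2 higher with the 75th percentile of all miRNAs, and 7 lower and 0 higher with spike-in controls and without scaling. The number higher was 0 with the mean of all miRNAs (by limma or the methods' t-test, adjusted or not) and with normexp, and 2 after quantile normalization, with that t-test on the main scaling and at an adjusted p below 0.05. Bonferroni adjustment and the deposited table, with or without the column of treated replicate 4, gave 1 lower and 0 higher, and the deposited table called 8 and 6 of the 28 pairs. Probes called lower were 8 with the 75th percentile of detected miRNAs, 3 with that of all miRNAs and 14 with spike-in controls, and probes called higher were 0, with the mean of all miRNAs, spike-in controls or no scaling, and 5 with the 75th percentile of all. With an array left out, 2 to 3 members were lower and 1 higher, 17 to 19 pairs were called, and 2 probes were higher and 4 to 6 lower. Calls over all miRNAs numbered 129, but 59 with normexp, 56 with the deposited table and 65 with Bonferroni adjustment.

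Signs turned as follows. With the 75th percentile of detected miRNAs let-7a, let-7d and let-7f were at -0.23, -0.11 and -0.12, with the mean of all miRNAs at -0.50, -0.37 and -0.38, and with normexp at -0.57, -0.40 and -0.46. With spike-in controls let-7a, let-7d, let-7f and let-7g were at -0.95, -0.82, -0.83 and -0.30, and without scaling at -1.14, -1.02, -1.03 and -0.50. let-7b came to 0.20 when arrays were set to the 75th percentile of all miRNAs. let-7f was at -0.14 in the deposited table, but at 0.15 without its column of error estimates for treated replicate 4. let-7a was at -0.011 by its brightest probe and -0.027 without non-treated replicate 3 (up to 0.046 with another array left out). The cause was not tested.

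Between arrays that share replicate number 1, 3 or 4, the correlations of deviations were -0.055, -0.034 and 0.18. The last was the highest between arrays of different label, but not every array correlated best with its own number. With so few arrays these values cannot show whether the samples were paired. With the replicate block, 94 miRNAs were called, let-7g over let-7i changed by 1.92, 2 members were lower and 1 higher, 17 pairs were called, and 1 probe was higher.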
